A study of Homo sapiens with 6 samples.

Results

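The mucin genes described here are MUC5AC, MUC5B, MUC2, MUC1, MUC13, MUC12, MUC17, MUC4, MUC3A and MUC20, 10 of the 60676 genes listed for HT29 cells, a human colorectal adenocarcinoma line. They were matched by Ensembl identifier to their symbols in GENCODE release 44, and all 10 had a row in both tables of normalized counts. The genes were selected on results of these same libraries: their counts in untreated, histidine-depleted and tryptophan-depleted cells chose them. Their values are therefore given as a description, with standard errors and without p-values. The cells, labelled as wild type, were left untreated or were kept for 48 h without histidine or without tryptophan, which asked how the absence of each amino acid changes the transcriptome. Each of the 3 groups had 2 libraries, 6 in all. The histidine-free medium was RPMI-based and the tryptophan-free medium DMEM F-12-based, and the base of the control medium of the untreated cells is not given for RNA sequencing in the sources used here, while the control in the study's proteomics was full RPMI medium. Both depleted media held dialyzed serum, and the serum of the untreated cells is not given for RNA sequencing. The missing amino acid, the base medium and the serum cannot be told apart in a comparison with untreated cells. Between the 2 depletions, the missing amino acid and the base medium cannot be told apart. Nothing states that the 2 libraries of a group came from separate cultures, so the p-values given for other genes measure the spread between libraries, which may be technical.

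Mucins are large glycoproteins whose serine-, threonine- and proline-rich stretches carry dense O-linked glycans. The secreted gel-forming mucins MUC2, MUC5AC and MUC5B assemble through cysteine-rich ends into the polymers of mucus. MUC2 builds the mucus of the normal colon, while MUC5AC is the gel mucin of the stomach surface and the airways, and MUC5B that of salivary and airway glands. The membrane mucins MUC1, MUC3A, MUC4, MUC12, MUC13, MUC17 and MUC20 stay anchored at the apical cell surface, where they form part of the glycocalyx and, in several cases, take part in signalling. HT29 cultures are known to contain some mucus-secreting cells beside a majority that does not secrete mucus. The RNA came from whole cultures, so fewer cells of a type and less RNA per cell cannot be told apart.

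The libraries held 46390819 to 64388876 recovered reads on genes. Of 9 colon epithelial markers, all 9 had an average of at least 10 normalized counts, and the keratin genes KRT8 and KRT18 had the highest counts of this list, with at least 81046 normalized counts in every library. Of 9 markers of leukocytes, fibroblasts and endothelium, PTPRC, CD3E and COL3A1 had at most 3 reads in every library. The summed scaled reads of these 9 genes were 297.3 to 313 in untreated, 233 to 249.3 in histidine-depleted and 468 to 474 in tryptophan-depleted libraries. CD14 accounted for most of the last value, with 370.0 and 361 normalized counts. Among 9 goblet cell markers, MUC2, TFF3, FCGBP, SPINK4, AGR2, ATOH1 and SPDEF were detected in untreated cells, while CLCA1 and ZG16 had at most 2 reads in every library.

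The coding sequences show what the members share and where reads can be ambiguous. Codons for serine, threonine and proline took 30.7% to 58.0% of the annotated coding sequence in 9 members, against a median of 18.6% over 19162 genes. MUC2 was the exception with 20.2%, over a canonical transcript that has only 1394 codons in the annotation. Histidine codons ranged from 0.378% in MUC17 to 4.03% in MUC12 (median of genes 2.45%), and tryptophan codons from 0 in MUC13 to 1.36% in MUC2 (median 1.13%). MUC5AC had 2.00% histidine and 0.778% tryptophan codons, and MUC5B 2.22% and 1.23%. MUC2, the third gel-forming member, had 3.44% histidine codons, above the median of genes, whereas MUC5AC and MUC5B lay below it. The MUC2 shares rest on the same transcript of 1394 codons, those of MUC5AC and MUC5B on 5654 and 5762 codons. They therefore hold for these transcripts only, and the difference may depend on the transcript annotated. Repeats are shown for MUC5AC, MUC5B and MUC20, the 3 members with higher counts after tryptophan depletion whose coding repeats are short enough to print. The stretches are from GRCh38 on the plus strand: MUC5AC chr11:1185631-1185702 in exon 31 of 49, MUC5B chr11:1250036-1250296 in exon 31 of 49, and MUC20 chr3:195725150-195725320 in exon 2 of 4. Capitals mark the first unit of the repeat, of 24 bases in MUC5AC, 87 in MUC5B and 57 in MUC20.
MUC5AC: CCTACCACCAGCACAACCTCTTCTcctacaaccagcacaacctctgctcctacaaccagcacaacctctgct
MUC5B: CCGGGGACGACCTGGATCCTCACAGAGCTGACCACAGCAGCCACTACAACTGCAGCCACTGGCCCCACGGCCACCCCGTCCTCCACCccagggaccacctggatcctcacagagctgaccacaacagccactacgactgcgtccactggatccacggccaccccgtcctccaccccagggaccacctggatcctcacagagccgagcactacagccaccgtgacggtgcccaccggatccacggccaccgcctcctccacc
MUC20: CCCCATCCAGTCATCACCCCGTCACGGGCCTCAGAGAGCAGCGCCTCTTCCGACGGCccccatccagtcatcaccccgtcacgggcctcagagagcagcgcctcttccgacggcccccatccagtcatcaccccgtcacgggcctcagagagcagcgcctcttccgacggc
Compared 1 unit apart, 14 of 16 codons were identical in the MUC5AC stretch, 40 of 58 in that of MUC5B and 38 of 38 in that of MUC20. Windows of 150 bases found more than once within the transcript made up 5.16% of the MUC5AC transcript, 12.4% of MUC5B, 15.7% of MUC20, 10.7% of MUC4 and 40.7% of MUC12, and none of the other 5 members. No such window was shared between members. Only 1 annotated transcript of each gene was searched. That of MUC2 gave 4060 windows, while the exons of the gene span 12667 bases, so repeats outside the transcript were not covered. How reads that fit several places were counted is not given in the sources used here, and the part of repeats in the counts was not tested.

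The tables list MUC5AC (ENSG00000215182) and MUC5B (ENSG00000117983), which lie side by side on the short arm of chromosome 11 at chr11:1157953-1201138 and chr11:1223066-1262172 (GRCh38, plus strand). Both gel-forming mucins had lower counts after histidine depletion and much higher counts after tryptophan depletion. MUC5AC had 2256 and 2425 normalized counts in untreated cells, 452 and 433 without histidine, and 30046 and 27599 without tryptophan. The 3 groups did not overlap, and both tryptophan-depleted libraries stood far above the untreated ones. Within its table, the mean was 2340.4 ± 119.9 in untreated cells and 442 ± 13.6 without histidine (SD, n = 2), 5.29 times lower. Without tryptophan it was 28822 ± 1730.4 against 2320.2 ± 113 in untreated cells (SD, n = 2), 12.4 times higher. On the log2 scale of the normalized count plus 1, these were differences of -2.40 ± 0.067 and 3.63 ± 0.047 (standard error of limma, a linear model over all genes). This scale holds for each log2 fold change against untreated cells, unless another tool or setting is named. Log2 differences between the depletions used reads scaled together, and values given as times or fold are ratios of means.

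MUC5B showed the same directions at a far lower level. Its normalized counts were 36.8 and 37.6 in untreated cells, 1.81 and 10.1 without histidine, and 508 and 536 without tryptophan. The histidine-depleted values rest on 2 and 10 reads, so their ratio to untreated cells is loosely known: the log2 fold change was -2.77 ± 0.48, and it ranged from -3.77 to -1.76 over the alternative settings. The increase without tryptophan, from 36.8 ± 0.444 to 522 ± 19.6 (SD, n = 2), was 14.2-fold, with a log2 fold change of 3.79 ± 0.14. MUC5B overlaps the antisense gene MUC5B-AS1 over 2.33% of its exonic bases. Scaled together, tryptophan-depleted libraries held 66.5 times as many MUC5AC reads and 89.1 times as many MUC5B reads as histidine-depleted ones. The MUC5B ratio rests on the same 2 and 10 reads, and its log2 value (histidine minus tryptophan) ranged from -7.57 to -5.34 over the alternative settings.

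MUC2 (ENSG00000198788), the colonic gel mucin, lies 83.1 kb from MUC5AC in the same cluster (chr11:1074875-1110511, plus strand) and was not higher without tryptophan. Its counts were 754 and 723 in untreated cells, 109 and 177 without histidine, and 644 and 527 without tryptophan. Both depleted groups lay wholly below the untreated libraries, and histidine-depleted cells lay lowest. The mean without histidine was 5.15 times lower (log2 fold change -2.40 ± 0.14). Without tryptophan it was 1.25 times lower (-0.33 ± 0.076), a difference that the test no longer called in a fit on all 6 libraries or without tryptophan depletion replicate 2, where it was -0.32 and -0.18. Compared directly, MUC2 stood 4.17 times higher without tryptophan than without histidine.

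**Figure D1:**
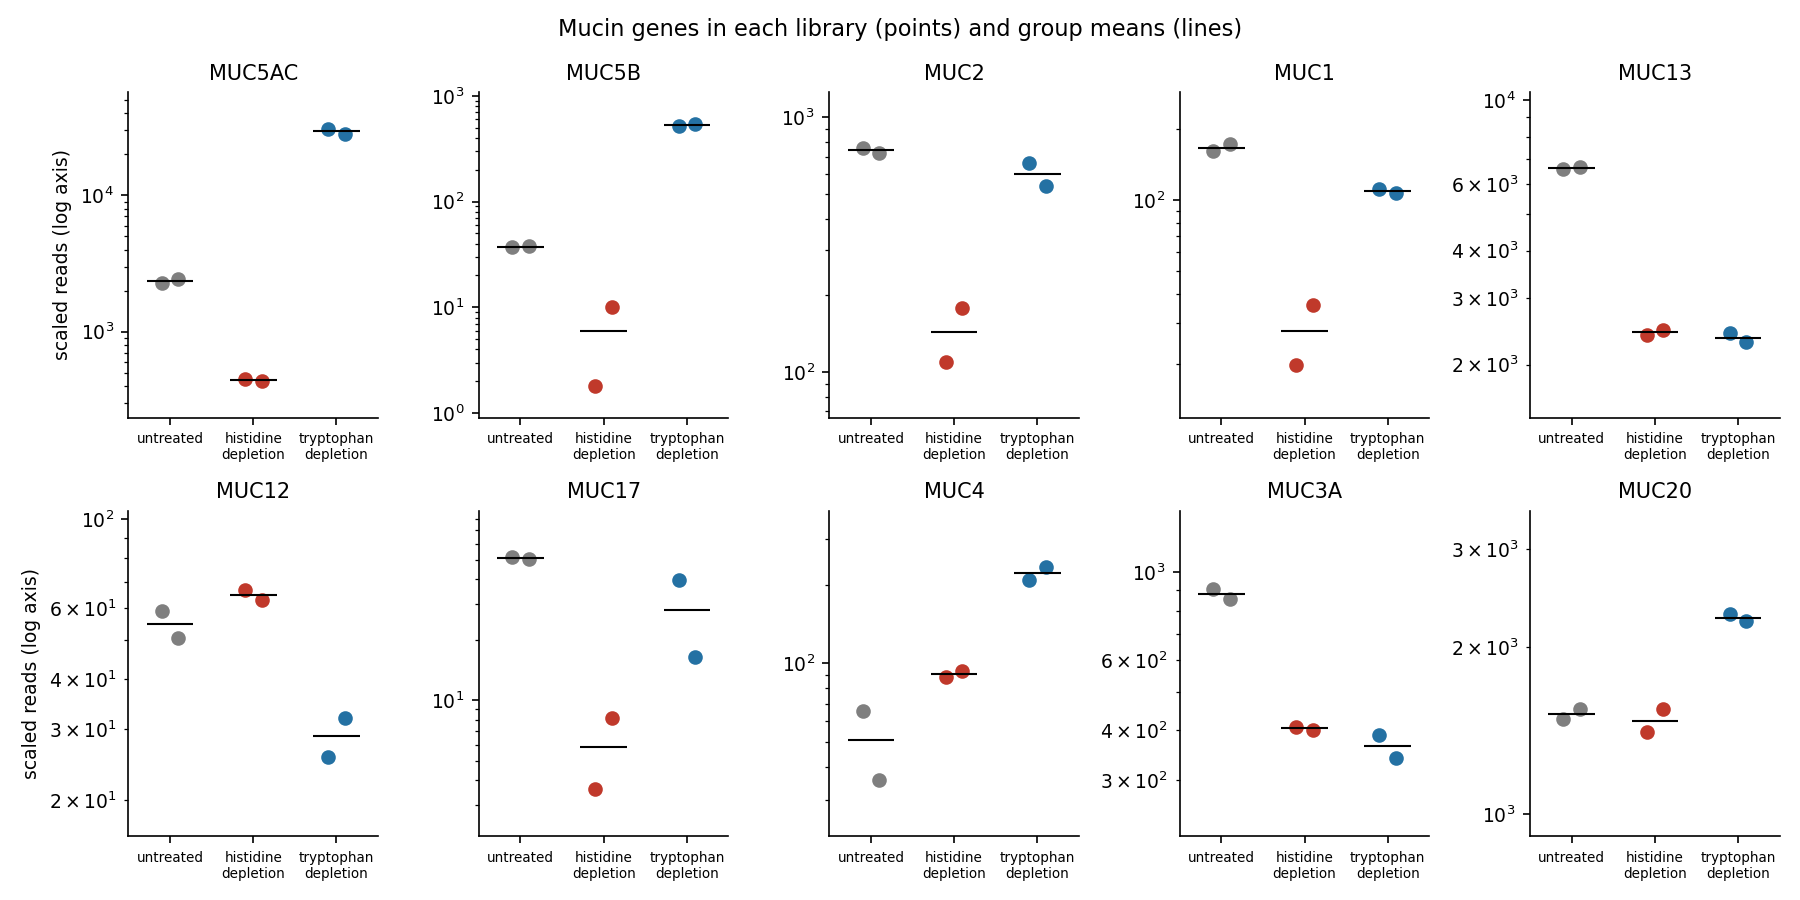
Reads of each mucin gene per library, divided by size factors shared by all 6 libraries, on a log axis that differs between panels (points, libraries; lines, means of 2 libraries). MUC5AC and MUC5B are lowest without histidine and highest without tryptophan, MUC13 and MUC3A are low in both depletions, and MUC4 is highest without tryptophan.

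The membrane mucins fell into several patterns. MUC13 (ENSG00000173702, chr3:124905442-124953819, minus strand), a small membrane mucin of the gut surface, had the most reads of the 10 in untreated cells and was low in both depletions. Its counts were 6522 and 6589.8 in untreated cells, 2401 and 2459.8 without histidine, and 2358 and 2254 without tryptophan. The depleted libraries all lay far below the untreated ones, and the 2 depletions differed from each other by 0.047 ± 0.043 on the log2 scale, histidine minus tryptophan. The ratios of untreated to depleted means were 2.7 and 2.82. MUC3A (ENSG00000169894, chr7:100949534-100968347, plus strand), a membrane mucin of the intestinal brush border, was low in both depletions as well. It had 897 and 848 counts in untreated cells, 408 and 399 without histidine, and 378 and 335 without tryptophan. Here too the depleted libraries all lay below the untreated ones, whose means were 2.16 and 2.42 times higher.

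MUC1 and MUC17 were low mainly without histidine. MUC1 (ENSG00000185499, chr1:155185824-155192916, minus strand), the epithelial membrane mucin whose tail binds signalling adaptors, had 159 and 171 counts in untreated cells and 19.9 and 35.5 without histidine, 5.96 times lower on average (log2 fold change -2.59 ± 0.23). It had 108 and 105 counts without tryptophan, a log2 fold change of -0.61 ± 0.15. The groups did not overlap for MUC1, and the histidine-depleted replicates differed from each other by 1.79 times. MUC17 (ENSG00000169876, chr7:101020072-101058859, plus strand), a brush border mucin of enterocytes, had 50.8 and 50.4 counts in untreated cells, 3.61 and 8.10 without histidine, and 38.5 and 16.2 without tryptophan. The histidine-depleted values rest on 4 and 8 reads, with a log2 fold change of -2.99 ± 0.37. The tryptophan-depleted libraries were 2.40 times apart, and the difference of -0.97 ± 0.28 was not called by DESeq2 (-0.90) or without tryptophan depletion replicate 2 (-0.38).

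MUC4, MUC20 and MUC12 were not lower without histidine, or only within the spread between libraries. MUC4 (ENSG00000145113, chr3:195746765-195811973, minus strand), a membrane mucin known as a partner of the receptor ERBB2, was higher in both depletions. It had 64.9 and 35.6 counts in untreated cells, 88.6 and 93.2 without histidine, and 204 and 229 without tryptophan. The groups did not overlap, although the untreated replicates differed from each other more than the depleted ones. The log2 fold changes were 0.90 ± 0.23 and 2.16 ± 0.17, and the ratios of the depleted to the untreated means 1.81 and 4.34. MUC20 (ENSG00000176945, chr3:195720884-195741123, plus strand), a membrane mucin known to bind the receptor MET, is the neighbour of MUC4. It had 1469 and 1536 counts in untreated cells and 1404 and 1537 without histidine, where the groups overlapped (-0.032 ± 0.062). Without tryptophan it had 2230.5 and 2184 counts, above all other libraries and 1.48-fold over untreated (0.57 ± 0.054). MUC20 shares 27.1% of its exonic bases with MUC20-OT1 on the same strand and has a related pseudogene, MUC20P1, so its counts are uncertain. MUC12 (ENSG00000205277, chr7:100969565-101018939, plus strand), another brush border mucin, had 58.4 and 50.4 counts in untreated cells, 66.9 and 62.8 without histidine, and 24.9 and 31.5 without tryptophan. The histidine-depleted libraries lay above the untreated ones by 0.25 ± 0.21 on the log2 scale, and the tryptophan-depleted ones below them, with a difference of -0.92 ± 0.26. MUC12 lies between MUC3A and MUC17 on chromosome 7 and was the only 1 of these 3 that was not lower without histidine.

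**Figure D2:**
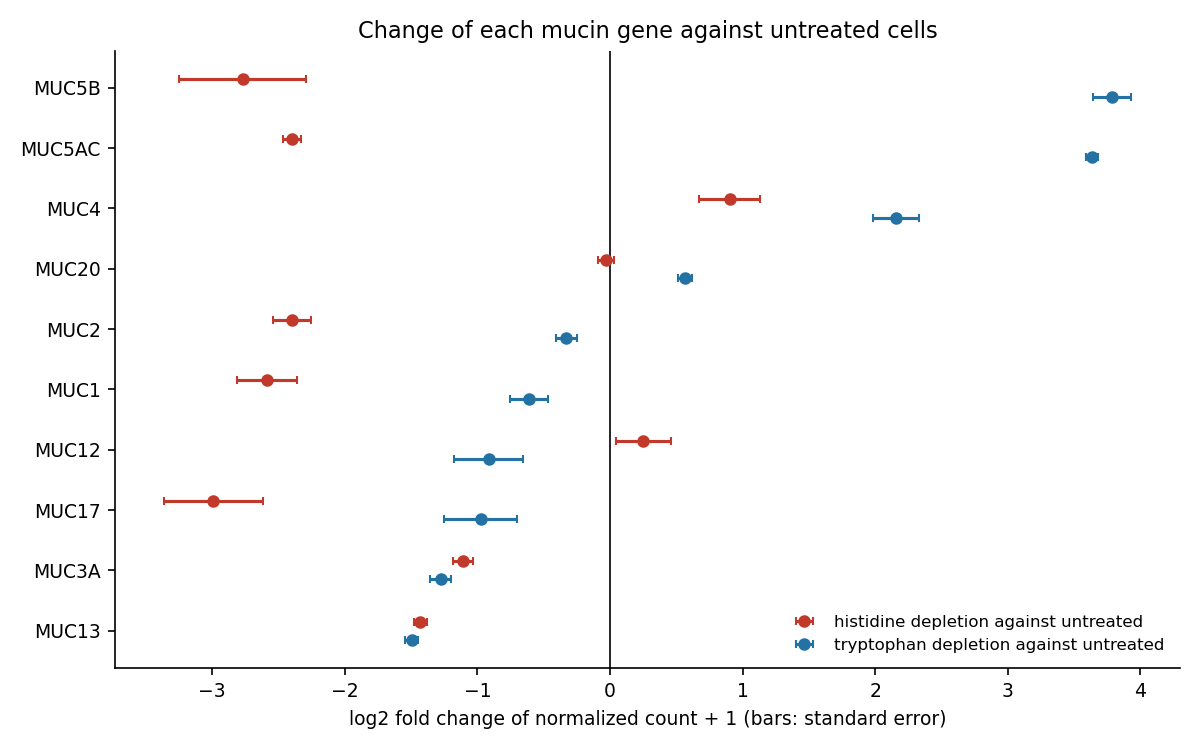
Log2 fold change of each mucin gene against untreated cells, with standard errors from 2 libraries a group, for histidine depletion (red) and tryptophan depletion (blue). MUC5AC and MUC5B lie at -2.40 and -2.77 without histidine and at 3.63 and 3.79 without tryptophan, while MUC13 and MUC3A have nearly the same value in both.

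All 10 members passed the filter on low values (an average of 10 normalized counts) and entered each comparison. After histidine depletion 1 member was called higher and 7 lower, and 2 were not called (limma, Benjamini-Hochberg adjusted p under 0.05). Among all 18288 genes tested, 39.1% were called higher and 38.2% lower. After tryptophan depletion 4 were called higher and 6 lower, where 36.1% and 34.8% of 17960 genes were called. Without histidine against without tryptophan, 1 was called higher, 7 lower and 2 were not called, against 38.7% and 38% of 18264 genes. The median log2 fold change of the members was -1.92, -0.47 and -1.63 in these comparisons, and that of all tested genes 0.010, 0.013 and 0.011. Of the 10, MUC5AC and MUC5B were called lower without histidine and higher without tryptophan, as were 9.44% of the 17470 genes tested against untreated cells in both, and none had the reverse order, found in 8.55% (18% for both orders). With MUC12, 3 members had both libraries of each depletion on opposite sides of the untreated ones, against 25.2% of genes. Since these comparisons chose the members, nothing is read from their counts.

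Per exon length, the order of the members changed with the medium. Levels are given as recovered reads scaled to exon length and library size (RPKM), with exon lengths from GENCODE release 44. In untreated cells MUC13 stood at 36.7 ± 0.649 (SD, n = 2), above 94.8% of protein-coding genes. MUC20 (4.30), MUC5AC (2.62), MUC3A (1.5), MUC1 (1.34) and MUC2 (1.14) followed, each with 2 libraries clear of the next gene. MUC17 (0.0675), MUC12 (0.0621), MUC4 (0.0470) and MUC5B (0.0391) came last, and neighbours in this order overlapped. Without histidine MUC13 (11.9 ± 0.183) and MUC20 (3.69 ± 0.229) still led, MUC5AC was the fourth at 0.435 ± 0.0141, and MUC1 and MUC2 overlapped, as did MUC17 and MUC5B. Without tryptophan MUC5AC led with 31.1 ± 2.12, above 94.1% of protein-coding genes. It was followed by MUC13 (12.4 ± 0.5) and MUC20 (6.07 ± 0.142). There MUC2 and MUC1 overlapped, as did MUC17 and MUC12, and MUC5B reached 0.528 ± 0.0154.

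**Figure D3:**
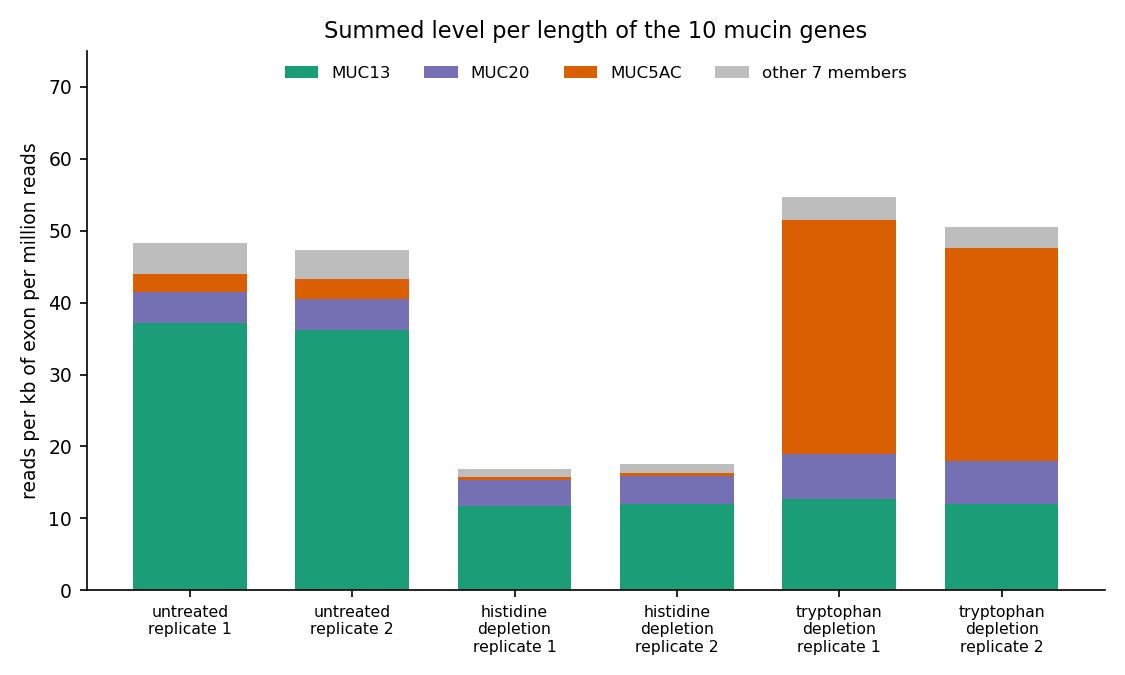
Summed level per length (RPKM) of the 10 mucin genes in each library, divided into MUC13, MUC20, MUC5AC and the other 7. The sums are 48.3 and 47.3 in untreated, 16.8 and 17.6 in histidine-depleted and 54.7 and 50.5 in tryptophan-depleted libraries, and MUC5AC makes up 5.33% and 5.65%, 2.65% and 2.42%, and 59.5% and 58.5% of them.

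The make-up of the mucin transcripts therefore differed while the sum without tryptophan stayed near that of untreated cells. MUC13 made up 76.9% and 76.6% of the summed RPKM of the 10 genes in untreated libraries, 70.1% and 68.5% without histidine, and 23.3% and 23.8% without tryptophan. The summed level without histidine was the lowest, with MUC20 at 21% and 21.9% of it.

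Replicates of some members differed more than those of most genes. Histidine depletion replicate 2 was above replicate 1 for 7 of the 10 members, by 1.63 times for MUC2, 1.79 for MUC1, 2.25 for MUC17 and 5.63 for MUC5B. These ratios rest on 22 and 35 reads for MUC1, 4 and 8 for MUC17 and 2 and 10 for MUC5B, so they are loosely known. A ratio of at least 1.5 in this direction was found in 3.24% of protein-coding genes with a mean of at least 10 in the highest group. That share was not matched for read number. The goblet genes ATOH1 (0.904 and 17.2 normalized counts), SPINK4 (9.04 and 29.4), TFF3 (33.4 and 83.1) and SPDEF (323 and 379) had the same order in these 2 libraries. The goblet markers FCGBP (133 and 113) and AGR2 (20160 and 20035) had the reverse order, as had MUC5AC (452 and 433). The part of this difference between libraries in the results was not tested, and each member kept its direction without either library except MUC20, whose difference was near 0. Between the tryptophan-depleted libraries, replicate 2 was below replicate 1 for 7 of the 10 members.

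The 5 protein-coding genes most like MUC5AC were found by the distance between pairs of log2 fold changes, in 6 libraries, among 11376 protein-coding genes tested in both comparisons with a mean of at least 100 in the higher group. They were CEACAM5, MUC5B, LRRC2, TRPV6 and SYNE3, at distances of 0.353, 0.402, 0.533, 0.629 and 0.789 log2 units. CEACAM5, the carcinoembryonic antigen of the colon surface, had 492 and 537 normalized counts in untreated cells, 66.9 and 104 without histidine, and 7745 and 7717 without tryptophan. TRPV6, an epithelial calcium channel, had a mean of 157 untreated, 23.3 without histidine and 1333 without tryptophan. LRRC2 and SYNE3, which encodes a nuclear envelope protein, went from untreated means of 47.9 and 48.2 to 7.61 and 4.74 without histidine and to 418 and 462 without tryptophan. These genes were picked for their likeness, and no test applies. A lower count without histidine with a higher count without tryptophan was called for 1363 of these genes (12%), and 10 of them passed a log2 fold change of 2 in both directions.

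Of 13 other mucin family genes with a row, 5 were tested in each comparison, and MUC7, MUC15, MUC16, MUC19, MUC21, MUC22, MUCL1 and EMCN were below the limit on the mean. After histidine depletion 2 of the 5 rose and 2 fell (39.1% and 38.2% of all genes tested), and after tryptophan depletion 4 rose and 1 fell (36.1% and 34.8%). MUC6, the gel mucin of gastric glands and the next mucin gene beyond MUC2, had 19.5 and 18.8 normalized counts in untreated cells, 16.3 and 24.3 without histidine, and 64.4 and 63.0 without tryptophan. It rose without tryptophan (log2 fold change 1.70 ± 0.27, limma adjusted p = 9.25e-09) and was not called without histidine (0.055 ± 0.34, limma adjusted p = 0.889). MUCL3, a mucin-like membrane protein that was named after its values were seen, fell without histidine (-0.97, limma adjusted p = 0.00511) and rose without tryptophan (0.95, limma adjusted p = 9.86e-05), and the first call was lost with DESeq2 (adjusted p = 0.068) and without untreated replicate 2 (-0.72, limma adjusted p = 0.075). OVGP1, an oviduct mucin, rose in both by 0.44 and 1.08 (limma adjusted p = 3.63e-05 and 2.69e-28). CD164, a sialomucin, rose by 0.14 and 0.90 (limma adjusted p = 0.0128 and 2.29e-38), and the first of these calls was lost without either histidine-depleted library (limma adjusted p = 0.14 and 0.24). MCAM, an adhesion molecule also called MUC18, fell by 0.24 and 1.37 (limma adjusted p = 0.00433 and 4.44e-34), and was not called after histidine depletion without histidine depletion replicate 2 (limma adjusted p = 0.088).

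Of 29 genes of mucin-type O-glycosylation, enzymes that build the glycans and C1GALT1C1, a chaperone of one of them, 22 were tested after histidine depletion, of which 6 rose and 12 fell, against 39.1% and 38.2% of all genes. Of 24 tested after tryptophan depletion, 13 rose and 9 fell, against 36.1% and 34.8%. Their median log2 fold changes were -0.21 and 0.17. ST6GALNAC1, the sialyltransferase that makes the sialyl-Tn antigen, went from 415 and 429 normalized counts to 38 and 47.6 without histidine and 107 and 78.2 without tryptophan. Both decreases passed the test (log2 fold changes -3.28 and -2.18, limma adjusted p = 6.50e-16 and 1.54e-35). GCNT1, which branches core 1 glycans, fell by 2.21 and 2.90 (limma adjusted p = 4.86e-13 and 1.02e-38). GALNT12, one of the enzymes that attach the first sugar, fell by 2.53 and 0.54 (limma adjusted p = 1.45e-19 and 1.42e-17). FUT3, the fucosyltransferase of Lewis antigens, had 145 and 162 counts in untreated cells, 157 and 158 without histidine (limma adjusted p = 0.796), and 764 and 752 without tryptophan, a rise of 2.31 (limma adjusted p = 1.10e-49). GCNT3, the mucin-type branching enzyme named here after its values were seen, went from 26918 and 28449 to 6045 and 6644 without histidine, and to 43958 and 44606 without tryptophan (limma adjusted p = 1.25e-20 and 6.81e-25).

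Most tested genes of the goblet granule and of mucus proteins fell without histidine. Of 12 tested, 10 fell and 1 rose, where 38.2% of all genes fell and 39.1% rose, with a median log2 fold change of -1.22. After tryptophan depletion 7 fell and 4 rose, where 34.8% of all genes fell and 36.1% rose, with a median of -0.51. SPINK4, a protein of goblet granules, was almost lost in both depletions: it had 632 and 634 counts in untreated cells, 9.04 and 29.4 without histidine, and 19.7 and 11.7 without tryptophan (limma adjusted p = 2.34e-14 and 1.02e-61). TFF3, the trefoil peptide that is secreted with MUC2, fell by 2.78 and 2.46 (limma adjusted p = 1.09e-10 and 1.23e-33). Its depleted libraries lay apart, at 33.4 and 83.1 counts without histidine and 92.5 and 46.8 without tryptophan, so the size of both decreases depends on the library. ERN2, the stress sensor of mucus-secreting cells, fell by 2.76 without histidine (limma adjusted p = 4.96e-19) and by 0.16 without tryptophan (limma adjusted p = 0.0123), and the latter call was lost with DESeq2 (adjusted p = 0.057), in a fit on all 6 libraries (limma adjusted p = 0.064) and without untreated replicate 2 or either tryptophan-depleted library (limma adjusted p from 0.056 to 0.15). SYTL2, a granule tethering factor, fell by 0.47 and 1.87 (limma adjusted p = 4.87e-08 and 5.17e-66). The genes that rose without tryptophan were TFF1, AGR2, BCAS1 and RAB3D, named here after their values were seen, and each of them fell without histidine. AGR2, the disulfide isomerase needed for mucin folding, went from 23736 and 24446 counts to 20160.0 and 20035 without histidine and to 49907 and 50591 without tryptophan (limma adjusted p = 7.49e-05 and 5.75e-42). TFF1, the trefoil peptide found with MUC5AC in the stomach, had 67.1 and 101, 24.4 and 26.3, and 165 and 162 (limma adjusted p = 1.23e-06 and 1.39e-08). BCAS1 changed by -0.54 and 1.42 (limma adjusted p = 3.48e-09 and 2.89e-61), and the vesicle GTPase gene RAB3D by -1.27 and 0.99 (limma adjusted p = 3.07e-15 and 2.99e-41). VAMP8, which serves in granule fusion, had the opposite order, with 0.86 and -0.86 (limma adjusted p = 3.01e-13 and 1.59e-33).

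Transcription factors known to act in goblet cells or on mucin genes were mostly lower without histidine. All 15 were tested against untreated cells: 11 fell and 4 rose without histidine (median -1.48), and 10 fell and 5 rose without tryptophan (median -0.24). Of all genes tested, 38.2% fell and 39.1% rose without histidine, and 34.8% and 36.1% without tryptophan. ATOH1, which commits cells to the secretory lineage, had 191 and 243 counts in untreated cells, 0.904 and 17.2 without histidine, and 15.6 and 13.5 without tryptophan (limma adjusted p = 5.24e-09 and 1.15e-35). GFI1, which acts after ATOH1, fell by 2.39 and 0.92 (limma adjusted p = 5.31e-10 and 1.54e-06). HNF4A, a master regulator of intestinal epithelium, fell by 2.76 and 1.33 (limma adjusted p = 2.93e-22 and 3.38e-57). KLF4, a factor of goblet cell differentiation, rose from 669.6 and 688 counts to 5424 and 5247 without histidine and to 2673 and 2695 without tryptophan (limma adjusted p = 5.26e-23 and 2.27e-67). SPDEF, a factor of goblet and airway mucous cells named after its values were seen, had 1464 and 1785 counts in untreated cells, 323 and 379 without histidine, and 2126 and 2186 without tryptophan (limma adjusted p = 6.94e-17 and 1.52e-11).

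Among 7 partners of membrane mucins, 5 rose and 2 fell without histidine (39.1% and 38.2% of all genes), and 3 rose and 3 fell without tryptophan (36.1% and 34.8%). ERBB2, the receptor known to bind MUC4, fell by 1.26 without histidine (limma adjusted p = 1.51e-16) and by 0.13 without tryptophan (limma adjusted p = 0.00858), and the smaller difference was not called without either tryptophan-depleted library (limma adjusted p = 0.16 and 0.22). ERBB3, its usual dimer partner, had 23265 and 23889 counts in untreated cells, 4794 and 5673 without histidine, and 29982 and 30232 without tryptophan (limma adjusted p = 6.43e-20 and 1.15e-10). LGALS3, a lectin that binds mucin glycans, rose by 1.15 and 1.04 (limma adjusted p = 1.60e-15 and 1.43e-45). ADAM17, a sheddase of MUC1, rose by 0.86 without tryptophan (limma adjusted p = 1.33e-35) and by 0.13 without histidine (limma adjusted p = 0.0373), a call lost with DESeq2 (adjusted p = 0.097), without a filter (limma adjusted p = 0.074) and without untreated replicate 1 or either histidine-depleted library (limma adjusted p from 0.055 to 0.30).

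**Figure D4:**
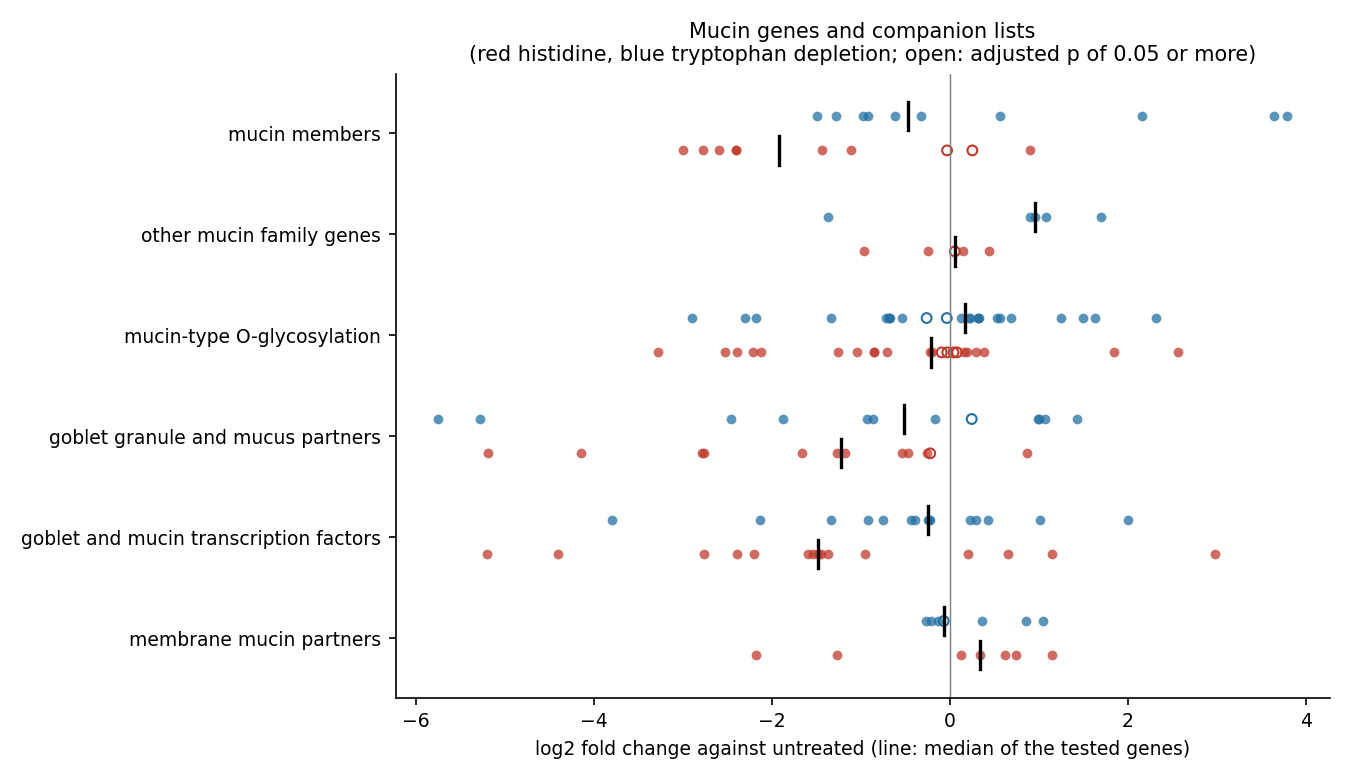
Log2 fold changes against untreated cells of the tested genes of each list without histidine (red) and without tryptophan (blue), filled where called, with the median as a line. The medians of the goblet granule list are -1.22 and -0.51, and those of the transcription factor list -1.48 and -0.24.

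The genes around the mucin loci did not move as blocks. Within 200 kb of a member lay 56 other protein-coding genes, of which 47 were tested: 14 rose and 23 fell without histidine, against 39.1% and 38.2% of all genes, and 20 rose and 18 fell without tryptophan, against 36.1% and 34.8%. Their median log2 fold changes were -0.26 and 0.14. Around MUC5AC, TOLLIP, a regulator of Toll-like receptor signalling 151.7 kb away, rose by 1.58 without histidine and by 0.39 without tryptophan (limma adjusted p = 1.83e-18 and 1.26e-12). BRSK2, a kinase gene, fell by 0.95 without histidine (limma adjusted p = 3.00e-04) and was not called without tryptophan (-0.29, limma adjusted p = 0.182). Near MUC1, ENTREP3 fell by 1.95 and 0.53 (limma adjusted p = 1.51e-18 and 7.02e-17). Next to it THBS3, which encodes a thrombospondin, fell by 1.34 without histidine (limma adjusted p = 4.54e-09) and was not called without tryptophan (0.17, limma adjusted p = 0.166), except without untreated replicate 1 (0.31, limma adjusted p = 0.014). DCST2 rose by 1.31 without tryptophan (limma adjusted p = 3.44e-09). Near MUC13, HEG1, itself a mucin-like membrane protein, rose by 1.52 without histidine and fell by 0.85 without tryptophan (limma adjusted p = 9.32e-10 and 2.69e-04). SLC12A8 fell by 1.5 and 0.41 (limma adjusted p = 1.58e-15 and 4.89e-10), and the guanine exchange factor gene KALRN by 0.81 and 0.77 (limma adjusted p = 4.02e-12 and 6.33e-28).

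Beside MUC4 and MUC20, the kinase gene TNK2 fell by 0.84 without histidine and rose by 0.19 without tryptophan (limma adjusted p = 2.96e-12 and 1.83e-04), and the second call was lost without tryptophan depletion replicate 2 (limma adjusted p = 0.082). PPP1R2, a phosphatase inhibitor, rose by 0.76 and 0.92 (limma adjusted p = 2.75e-12 and 6.83e-39). Beside MUC3A, MUC12 and MUC17, VGF rose by 2.79 without histidine (limma adjusted p = 4.02e-15) and was not called without tryptophan (-0.061, limma adjusted p = 0.821). MOGAT3, an acyltransferase of triglyceride synthesis, fell by 2.75 without histidine (limma adjusted p = 2.43e-15) and by 0.27 without tryptophan (limma adjusted p = 0.00628), the latter not called by DESeq2 (adjusted p = 0.068) or without tryptophan depletion replicate 1 (limma adjusted p = 0.086).

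**Figure D5:**
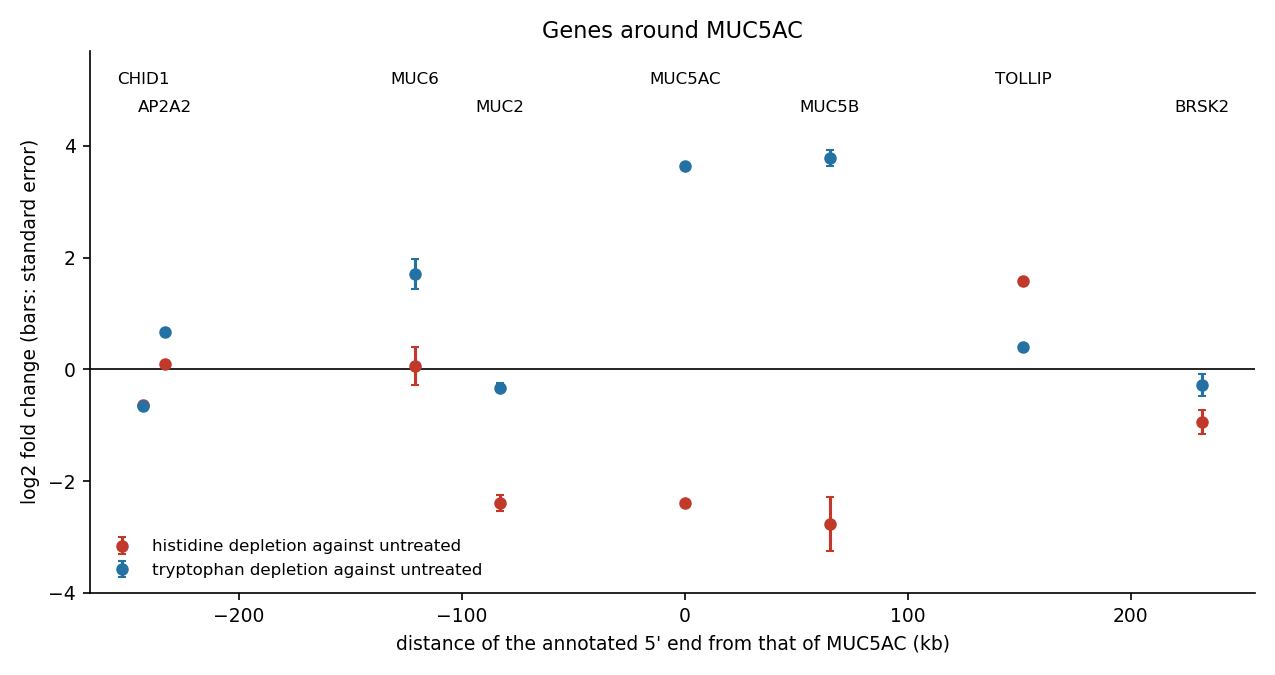
Log2 fold change without histidine (red) and without tryptophan (blue), with standard errors from 2 libraries a group, of tested protein-coding genes by the distance of their annotated 5' end from that of MUC5AC in kb. Without tryptophan MUC5AC and MUC5B lie at 3.63 and 3.79, between MUC2 at -0.33 and TOLLIP at 0.39.

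Promoter sequences from RefSeq (GRCh38.p14, 250 bases before the annotated start) were found for 7 members, MUC1, MUC2, MUC3A, MUC4, MUC12, MUC13 and MUC17, and not for MUC5AC, MUC5B and MUC20. They are shown because these genes moved together in part, and 9 short motifs were searched on both strands. The AP-1 element, searched as TGANTCA, which reads the same on both strands, was found in MUC2, MUC13 and MUC17, and in 6.57% of all 35116 promoters of this length. The middle letter was left free, and it is A in MUC2, G in MUC13 and C in MUC17. The last 180 bases before the RefSeq start of these 3 genes are MUC2 chr11:1074694-1074873 (plus strand), MUC17 chr7:101019901-101020080 (plus strand) and MUC13 chr3:124934752-124934931 (minus strand). Capitals mark the motif matches.
MUC2: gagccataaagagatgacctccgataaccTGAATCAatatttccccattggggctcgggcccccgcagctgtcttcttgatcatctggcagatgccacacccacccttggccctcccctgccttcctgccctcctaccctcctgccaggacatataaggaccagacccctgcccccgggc
MUC17: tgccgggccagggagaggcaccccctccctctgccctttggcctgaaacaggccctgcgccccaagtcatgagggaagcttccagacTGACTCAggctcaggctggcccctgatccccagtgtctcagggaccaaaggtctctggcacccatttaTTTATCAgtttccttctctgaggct
MUC13: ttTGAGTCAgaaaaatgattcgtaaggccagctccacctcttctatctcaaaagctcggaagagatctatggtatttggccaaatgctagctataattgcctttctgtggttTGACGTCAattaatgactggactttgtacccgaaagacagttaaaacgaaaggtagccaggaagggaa
Counted to the first base of the match, the AP-1 letters lie 151, 93 and 178 bases before these starts. The second match in MUC17, 25 bases before the start, is the CDX element TTTATNA, found in 11.2% of promoters, and another lies 212 bases before the start. The second block in MUC13 holds 2 overlapping copies of the core of the cAMP response element, TGACG, on opposite strands. At least 1 copy of TGACG was found in 21.2% of promoters, and MUC3A held 2 separate ones. The FOXA element TGTTTNC (15.5% of promoters) was found in MUC4, and the GC box GGGCGG (42.6%) in MUC1, MUC3A and MUC4. The letters of the TATA box, TATAAA (10.7% on either strand), were found in MUC1 in the direction of the gene. In MUC12 they lay on the opposite strand only. The GATA element AGATAA (9.17%), the E-box CACGTG (6.34%) and the kappa-B consensus (9.96%) were found in none of the 7. MUC2, MUC17 and MUC13 each had lower counts without histidine, and so had MUC1 and MUC3A, whose windows hold no AP-1 letters. The matches describe letters in these windows only.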

How the data were processed

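RNA of untreated, histidine-depleted and tryptophan-depleted HT29 cells was sequenced from stranded mRNA libraries, 2 per group. The authors used STAR 2.7.10a and GRCh38 for alignment and HTSeq 2.0.5 with GENCODE release 38 for exon counting. They deposited a signal, the count over the DESeq2 size factor, in 2 tables (one for each depletion) normalized separately. The use of strand and of molecular identifiers in counting is not given in the sources used here. Dividing the deposited values by the smallest step in each library returned whole reads for 100% of values (tolerance 0.01). Gene names came from GENCODE release 44, which held 60357 of the 60676 identifiers.

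Each table was tested on its own in R 4.3.3 by limma 3.58.1, two-sided and with the trend option. Values were log2(normalized count + 1) of genes averaging 10 or more, with Benjamini-Hochberg adjustment over all genes tested and a threshold of 0.05. The pseudocount understates fold changes of genes with low counts. Depletions were compared with each other on recovered reads, after the 6 libraries had been given common median-of-ratios size factors. The members and gene lists were chosen with earlier results of these data known. Text names all members, up to 4 called genes per list with the largest change and a mean of at least 100, the 5 genes most like MUC5AC, and up to 3 neighbours per locus within 200 kb. A neighbour that met this rule is not reported here. A further 11 genes were named after their values were seen. Alternatives were edgeR 4.0.16 and DESeq2 1.42.0, pseudocounts of 0.5 and 8, minimum means of 0 and 50, blocking on replicate, fitting all 6 libraries at once and omitting each library. The scripts were tested on simulated data. Python 3.11.15 was used for tables, sequences and plots. Deposited sequence reads were not analysed here.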

Additional observations from a re-analysis of the deposited data

Results flagged for a closer look

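For 3 mucin genes every library of one depletion lay on the other side of the untreated libraries from every library of the other depletion, a pattern found in 25.2% of the 17470 genes tested against untreated cells in both depletions. MUC5AC had log2 fold changes of -2.40 without histidine and 3.63 without tryptophan, MUC5B -2.77 and 3.79, and MUC12 0.25 and -0.92. In the direct comparison, histidine minus tryptophan, the log2 values were -6.05, -6.58 and 1.15, given as a description since these genes were chosen with the difference known.

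Of 73 genes of the other lists tested in both, 20 were called in opposite directions in the 2 depletions, 15 of them lower without histidine and higher without tryptophan and 5 the other way round. Of all 17470 genes, 18% were called in opposite directions, 9.44% in the first order and 8.55% in the second. For such genes the sign of the direct comparison is fixed by the choice, so its values are a description. Among those named in the text, the log2 difference, histidine minus tryptophan, was -2.56 for ERBB3, -1.93 for MUCL3, -2.83 for GCNT3 and -2.67 for TFF1. It was -1.35 for AGR2, -1.98 for BCAS1, -2.27 for RAB3D, -2.65 for SPDEF and 1.70 for VAMP8. The markers CD14 and KRT18 had -2.70 and -0.93, and the receptor gene MET had 0.81. CEACAM5, also among the 15, is given below. The MUCL3 call without histidine was lost with DESeq2 and without untreated replicate 2. Of 47 tested neighbours of the mucin loci, 12 were called in opposite directions, 7 in the first order and 5 in the second, against the same shares of all genes, with differences from -2.25 to 2.35. Those named in the text were HEG1 (2.35) and TNK2 (-1.05). The difference was -6.54 for CEACAM5, -5.64 for LRRC2, -5.81 for TRPV6 and -6.38 for SYNE3, which were picked for their likeness to MUC5AC. MUCL3, GCNT3, TFF1, AGR2, BCAS1, RAB3D, SPDEF and VAMP8 were named after their values were seen.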

How the results depend on the processing

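Under alternative settings, 368 log2 fold changes of members kept their direction and their call and 6 did not. The 368 include differences that were not called in either fit. All settings used the libraries that chose the members, so this tally describes the processing only. The exceptions were MUC2 without tryptophan in a fit on all 6 libraries (-0.32) and without tryptophan depletion replicate 2 (-0.18), MUC17 without tryptophan in DESeq2 (-0.90) and without tryptophan depletion replicate 2 (-0.38), MUC3A between the depletions, called only without tryptophan depletion replicate 1 (0.24), and MUC20, whose difference from untreated turned to 0.033 without histidine depletion replicate 1. The number of members called higher without histidine than without tryptophan was 1, and it was 0 with a mean of at least 50, where fewer genes are tested, and 0 to 2 over all settings, with 2 without tryptophan depletion replicate 1. Among other named genes the direction turned 10 times, in differences that were not called with all libraries. With 1 library left out, the log2 fold change after histidine depletion ran from -0.39 to 0.32 for DCST2 (0.18 without histidine depletion replicate 2) and from -0.22 to 0.33 for MUC6, and FUT3 turned to -0.040 without untreated replicate 1. VGF turned to 0.20 after tryptophan depletion without tryptophan depletion replicate 1. Between the depletions TFF3 ran from -0.99 to 0.31 (0.15 without tryptophan depletion replicate 1), ATOH1 from -3.06 to 0.21 and SPINK4 from -0.72 to 0.88 (also turning to -0.28). Of the turned values only that of SPINK4 without histidine depletion replicate 2 was called (-0.72, limma adjusted p = 0.022). The cause was not tested. Replicate numbers were shared by the groups, but no source says that they pair the samples, and deviations of same-numbered libraries correlated at 0.12 between untreated and histidine-depleted, -0.053 between untreated and tryptophan-depleted and -0.10 between the depleted libraries. With a replicate block, 7311 genes were higher and 7121 lower after histidine depletion, 6501 and 6265 after tryptophan depletion and 7095 and 6974 between the depletions, and the members' calls were the same. Among other named genes the block added calls for ATOH1 between the depletions (-1.42, limma adjusted p = 0.0131, against 0.0511 without it) and LGALS4 without tryptophan (0.11, limma adjusted p = 0.0426), and changed no other call. A crossed pairing of the depleted libraries, chosen after seeing the data, gave 7165 and 7027. Depth limits MUC5B and MUC17 most, with 2 to 10 reads in histidine-depleted libraries.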

Other observations

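The colon epithelial markers were not part of the mucin lists. They include CEACAM5, the gene most like MUC5AC, with log2 fold changes of -2.61 without histidine and 3.92 without tryptophan. KRT18 had the same directions, with -0.52 and 0.39. Of 9 tested, 5 rose and 4 fell without histidine, against 39.1% and 38.2% of all genes, and 6 rose and none fell without tryptophan, where 3 were not called, against 36.1% and 34.8% of all genes (limma). KRT20, a keratin of differentiated colon cells, had 10159 and 10690.0 normalized counts in untreated cells, 34603 and 34912 without histidine, and 53940.0 and 53925 without tryptophan (limma adjusted p = 2.08e-19 and 7.07e-85). KRT19, another keratin of simple epithelium, rose by 1.55 and 0.67 on the log2 scale (limma adjusted p = 2.47e-17 and 4.00e-25). LGALS4, a lectin of the intestinal brush border, fell by 1.57 without histidine (limma adjusted p = 2.07e-17). Without tryptophan it was not called in the main limma fit (0.11, adjusted p = 0.0779). It was called by edgeR (0.11, adjusted p = 0.00464) and DESeq2 (0.10, adjusted p = 0.00688). Limma also called it in a fit on all 6 libraries (0.12, adjusted p = 0.0446) and with a replicate block (0.11, adjusted p = 0.0426). The difference was 0.081 without untreated replicate 1 and 0.14 without untreated replicate 2. KRT20, KRT19 and LGALS4 were named after their values were seen.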
